A study of Mus musculus with 9 samples.

Results

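ATP-binding cassette (ABC) genes encode a family of ATP-driven proteins that mouse nomenclature sorts into subfamilies A to G. Every gene of the deposited table whose symbol places it in subfamilies A to G was taken, leaving out pseudogenes, which gave 50 of 30350 genes. The 26 whose mean was at or above 0.5 FPKM (fragments scaled to gene length and to library depth, the unit inferred for the authors' values) over the 9 libraries were compared between groups. The other 24 were described by level only. Of the 26 compared genes 5 were in subfamily A, 4 in B, 7 in C, 3 in D, 1 in E, 3 in F and 3 in G.

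The RNA-seq libraries came from AML12, a line of mouse hepatocytes derived from an animal carrying a human TGF alpha transgene, in 3 groups of 3 libraries. NC cells were in DMEM/F12 medium, FFA cells in DMEM/F12 with free fatty acids, and FFA-SIN cells in DMEM/F12 with free fatty acids and sinomenine, a plant alkaloid. The design text gives 24 hours of fatty acids and then 48 hours of fatty acids with 200 µM sinomenine. The sources used here do not give the culture times of NC and FFA or the fatty acids used, so treatment and culture time cannot be told apart. Nothing says that the libraries of a group came from separate cultures, so p-values measure only how far libraries differ, which may be technical.

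Most ABC proteins pump their substrates across a membrane at the cost of ATP. In the liver, exporters of the canalicular membrane (the side facing bile) carry bile salts, phospholipids, sterols, drugs and conjugated waste into bile, and exporters of the basolateral membrane (the side facing blood) return conjugates and bile acids to the circulation. Other members move lipids within the cell, serve mitochondria, peroxisomes or lysosomes, or have no membrane span and act in translation.

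The 9 libraries held 43126790 to 71271567 reads, as recovered from the steps of the FPKM values. All 10 hepatocyte markers looked at (such as Alb, Ttr and Hnf4a) averaged at least 0.5 FPKM, with summed levels of 3950 to 4019 FPKM in NC, 4227 to 4266 in FFA and 4568 to 4657 in FFA-SIN. The list moved in both directions: between FFA-SIN and NC Alb, Ttr, Trf, Cps1 and Tat rose, and Hnf4a, Apoa1, Krt8 and Krt18 fell (5 up, 4 down). Over all genes tested 22.9% rose and 25% fell in this comparison. Tat averaged 0.301 FPKM in NC, 0.480 in FFA and 0.721 in FFA-SIN. It reached the minimum only through FFA-SIN, the group where it was high. Its call is therefore no support, and the count of 5 up rests in part on the filter. Of the bile duct markers 5 of 7 averaged at least 0.5 FPKM, all but Epcam and Cftr. The bile duct list summed to 1867 to 1940 FPKM in NC, 1777 to 1797 in FFA and 1580 to 1599 in FFA-SIN. None of 6 endothelial markers reached 0.5 FPKM. Of the 7 stellate and fibroblast markers only Des did, and the list summed to 9.96 to 10.3 FPKM in NC, 5.70 to 6.69 in FFA and 3.24 to 3.38 in FFA-SIN. Of the 4 macrophage markers in the table Ptprc and Csf1r were below 0.5 FPKM, and the list's sum of 694 to 711 FPKM in NC, 625 to 632 in FFA and 452 to 473 in FFA-SIN was nearly all Cd14. The share of reads on mitochondrial genes was 3.92% to 4.07% in NC, 4.53% to 4.59% in FFA and 4.48% to 4.86% in FFA-SIN. The part of these marker lists and of that share in the results was not tested. In bulk RNA, fewer cells of a type and less RNA per cell cannot be told apart.

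The ABC transcripts of these cells were dominated by exporters of conjugates and drugs in subfamily C, which made up 61.1 ± 0.138% of the summed level of the 26 compared genes in NC, 57.6 ± 0.257% in FFA and 57.4 ± 0.231% in FFA-SIN. The mean level per length was highest for Abcc3 in every group, at 302 ± 5.24 FPKM in NC, 252 ± 3.09 in FFA and 211 ± 3.82 in FFA-SIN (SD, n = 3 libraries). Abcc4 and Abcc2 came next, at 92.8 ± 1.11 and 84.0 ± 1.07 FPKM in NC. In FFA and FFA-SIN this order was Abcc2 before Abcc4, with no overlap between the libraries of the pair. After them came the translation proteins Abcf1 and Abcf2, whose libraries overlapped in NC and FFA. Of the 25 neighbouring pairs in the order of levels, 8 overlapped in NC, 7 in FFA and 5 in FFA-SIN. The lowest compared gene was Abcc6, at 1.03 ± 0.0583 FPKM in NC.

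**Figure D1:**
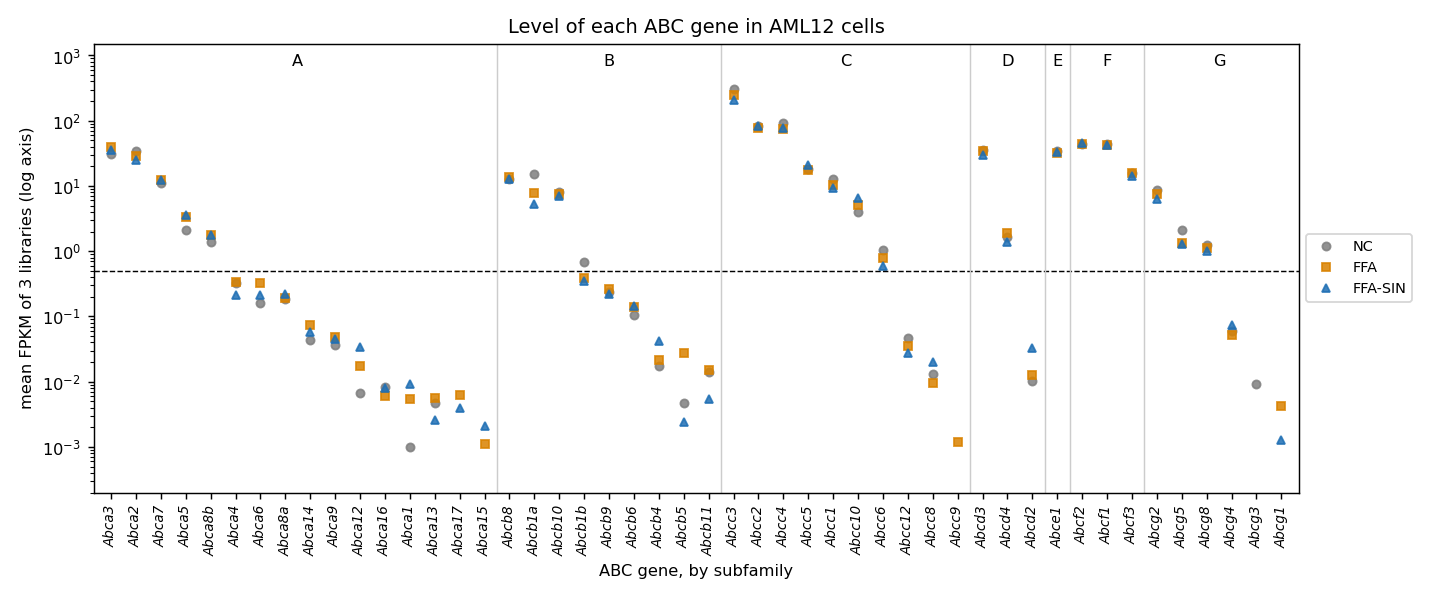
Mean FPKM of 3 libraries on a log axis for 48 of the 50 ABC genes, ordered by level within subfamilies A to G, with a grey circle for NC, an orange square for FFA and a blue triangle for FFA-SIN; a group listed at 0 has no point. The dashed line marks 0.5 FPKM, and the compared genes sit to the left within their subfamilies, up to Abcc3 at 302 FPKM in NC.

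Several transporters that define hepatocyte bile formation and sterol efflux were near absent. Abcb11, the bile salt export pump, reached at most 0.0315 FPKM in any library, from 30 reads in all 9 together. Abcb4, which delivers phosphatidylcholine to bile, reached at most 0.0582 FPKM. Abca1, which loads cholesterol onto apolipoprotein A-I, had 14 reads over the 9 libraries, and Abcg1, which passes cholesterol on to formed lipoprotein particles, had 3.

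In all, 18 of the 24 genes below the minimum stayed under 0.1 FPKM in every library. Besides those just named they were Abca9, Abca12, Abca13, Abca14, Abca15, Abca16, Abca17, Abcb5, Abcc8, Abcc9, Abcc12, Abcd2, Abcg3 and Abcg4, of which Abca14 was highest with 0.0824 FPKM in a library. A further 5 had their highest library between 0.1 and 0.5 FPKM, namely Abca4 (0.385), Abca6 (0.347), Abcb9 (0.290), Abca8a (0.255) and Abcb6 (0.156). None was at 0 in all 9 libraries. The minimum of 0.5 FPKM fell between Abcc6, with a mean of 0.803 FPKM, and Abcb1b, with a mean of 0.474 FPKM. ABC genes with other symbols were low too, with a mean of 0.102 FPKM for Tap2 and 0.000632 for Tap1, which load peptides for antigen presentation, and 0.00939 for the chloride channel Cftr.

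Summed over the 26 compared genes, the ABC level was 843 ± 9.86 FPKM in NC, 760 ± 4.69 in FFA and 714 ± 3.54 in FFA-SIN, with no overlap between groups. Abcc3 made up 35.8 ± 0.232% of that sum in NC, 33.1 ± 0.281% in FFA and 29.6 ± 0.397% in FFA-SIN. Without Abcc3 the sum was 541 ± 4.87, 508 ± 3.06 and 503 ± 1.04 FPKM, and the libraries of FFA and FFA-SIN still did not overlap. Subfamily F, by contrast, summed to 103 ± 1.24, 102 ± 1.14 and 101 ± 1.33 FPKM. All of these sums are descriptions with no test.

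**Figure D2:**
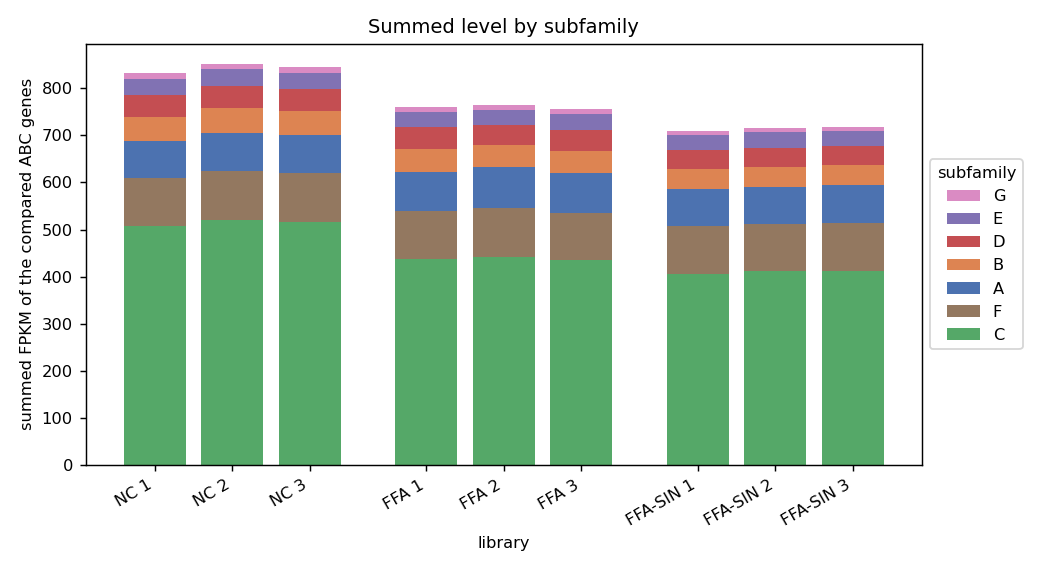
Summed FPKM of the 26 compared ABC genes in each of the 9 libraries, stacked by subfamily (bars start at 0). Subfamily C (green) fills most of each bar, and its sum was 515 FPKM on average in NC, 438 in FFA and 410.2 in FFA-SIN, while subfamily F (brown) stayed between 99.7 and 105 FPKM.

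Changes were tested with limma on log2(FPKM + 1) across the 13132 genes that averaged 0.5 FPKM or more, and a gene counts as changed at an adjusted p (Benjamini-Hochberg) below 0.05. Fold changes on this scale (log2FC ± SE below) understate the change of low genes. Between FFA and NC 16 of the 26 compared ABC genes changed, 6 up and 10 down, where 34% of all genes tested changed (17.1% up, 16.8% down). Between FFA-SIN and FFA 12 changed, 4 up and 8 down, against 28.3% of all genes (12.6% up, 15.7% down). Between FFA-SIN and NC 19 changed, 7 up and 12 down, against 47.9% of all genes (22.9% up, 25% down). These comparisons share libraries, so they are not independent of each other.

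The median log2FC of the 26 was -0.07 for FFA against NC, -0.07 for FFA-SIN against FFA and -0.10 for FFA-SIN against NC, beside medians of 0.00, -0.01 and -0.01 over all genes tested. Their median absolute log2FC was 0.15, 0.10 and 0.19, beside 0.09, 0.08 and 0.13 over all genes. Libraries did not overlap between FFA and NC for 20 of the 26 (46.4% of all genes), between FFA-SIN and FFA for 16 (43.3%), and between FFA-SIN and NC for 22 (57.5%). Within a group the coefficient of variation of a compared gene was 0.369% to 19.5%, with a median of 2.74%. The levels rested on 138 (Abcg5) to 111729 (Abcc3) reads per gene and library.

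**Figure D3:**
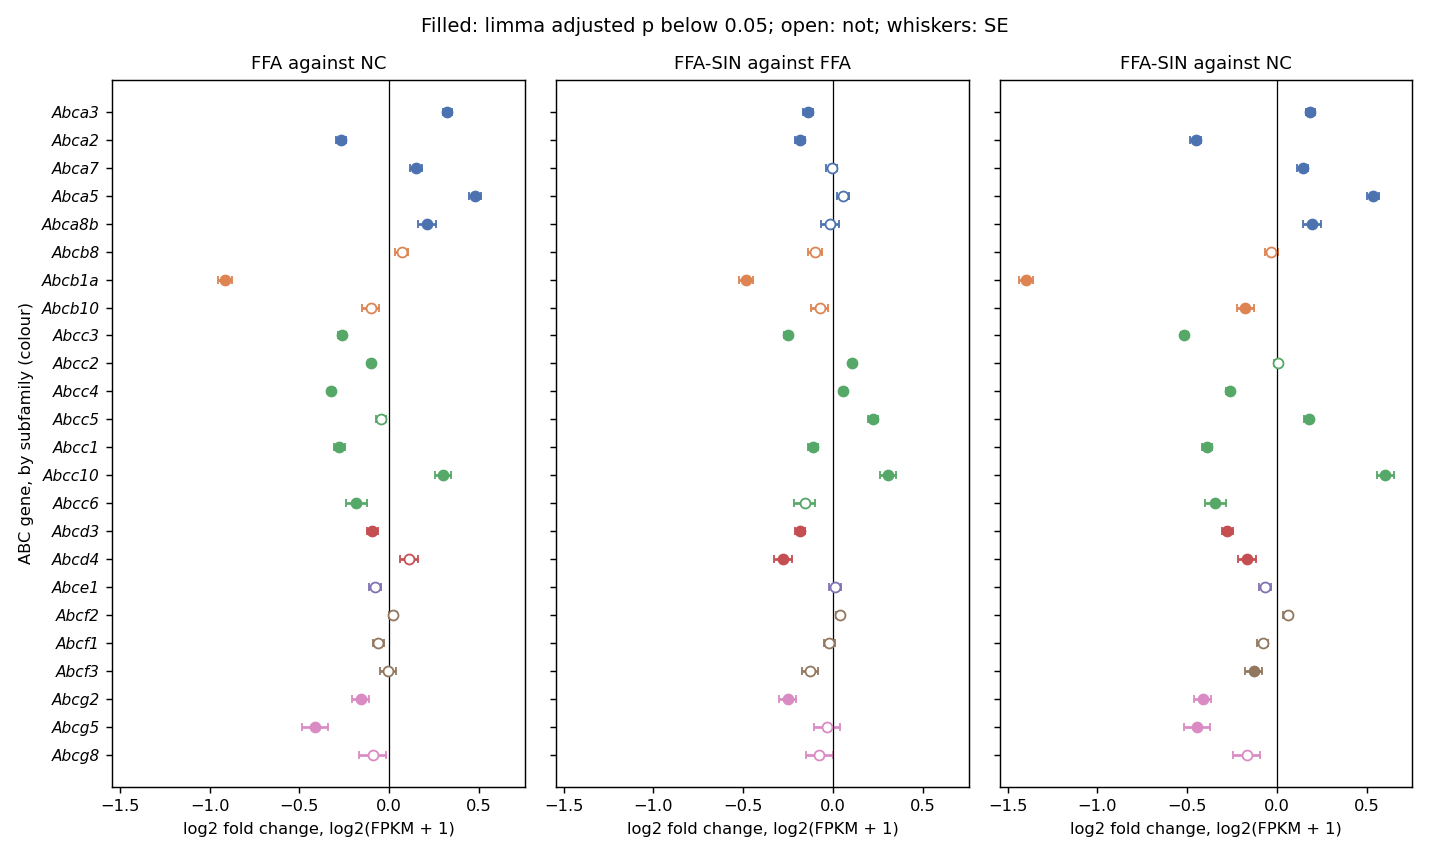
Log2 fold change on the log2(FPKM + 1) scale (x axis) of 24 of the 26 compared ABC genes, by subfamily and level, in the 3 comparisons; points are filled where limma's adjusted p was below 0.05, and whiskers are the SE. Abcb1a lies farthest left in each panel (-0.92, -0.48 and -1.40), subfamily F stays near 0, and subfamily C holds both falls and rises.

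The drug exporter Abcb1a had the largest log2FC in size of the 26 compared ABC genes in each comparison, while genes below the minimum were not ranked. It encodes P-glycoprotein, which pumps many drugs out of cells and sits in the canalicular membrane of hepatocytes (ENSMUSG00000040584). Its level was 15.6, 15.5 and 15.0 FPKM in the NC libraries, 7.95, 7.20 and 7.88 in FFA, and 5.27, 5.32 and 5.03 in FFA-SIN. The 3 groups did not overlap: every FFA library was below every NC library, and every FFA-SIN library below both. Abcb1a fell to 0.50 of the NC mean in FFA (log2FC -0.92 ± 0.04, adjusted p = 4.06e-07). With sinomenine it fell to 0.678 of the FFA mean (-0.48 ± 0.04, adjusted p = 2.17e-05). FFA-SIN stood at 0.339 of NC (-1.40 ± 0.04, adjusted p = 7.94e-09).

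Abcb1b, the neighbour of Abcb1a on chromosome 5 and its close paralog, was below the minimum and not tested. It was at 0.659, 0.697 and 0.695 FPKM in NC, 0.426, 0.332 and 0.399 in FFA, and 0.356, 0.374 and 0.328 in FFA-SIN. All NC libraries were above all others, and FFA and FFA-SIN overlapped. The ratio of Abcb1a to Abcb1b was 22.5 ± 1.08 in NC, 20.03 ± 1.54 in FFA and 14.8 ± 0.556 in FFA-SIN. The sources used here do not say how reads shared by the pair were counted, so the values of both are less certain.

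The 250 bases before the transcription start of both paralogs are shown because the genes lie side by side and both had their highest level in NC. They are RefSeq promoter sequences of build GRCm38.p6, at the start farthest upstream, read 5′ to 3′ on the plus strand, from chr5:8566841-8567090 for Abcb1a and chr5:8797897-8798146 for Abcb1b. Capitals mark matches on either strand to 5 motifs: the CCAAT box (CCAAT), the GC box (GGGCGG), the TATA box (TATAAA), the core of the antioxidant response element (TGACNNNGC) and the binding motif of many nuclear receptors (AGGTCA).
Abcb1a: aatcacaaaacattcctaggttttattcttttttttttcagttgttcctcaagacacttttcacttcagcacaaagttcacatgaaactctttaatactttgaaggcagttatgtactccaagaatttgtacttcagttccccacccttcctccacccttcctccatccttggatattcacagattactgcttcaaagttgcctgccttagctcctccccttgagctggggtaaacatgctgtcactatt
Abcb1b: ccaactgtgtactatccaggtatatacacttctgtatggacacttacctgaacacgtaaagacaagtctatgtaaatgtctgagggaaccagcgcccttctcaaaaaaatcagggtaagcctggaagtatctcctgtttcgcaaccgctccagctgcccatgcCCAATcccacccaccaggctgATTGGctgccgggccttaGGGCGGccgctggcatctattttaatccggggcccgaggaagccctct
The Abcb1a stretch held none of the 5 motifs. The Abcb1b stretch held CCAAT at -87 to -83 counted from the start, its reverse complement at -66 to -62, and GGGCGG at -48 to -43. Among 32851 such stretches of the RefSeq table, CCAAT was present in 33.8%, GGGCGG in 32.7%, TATAAA in 12.4%, TGACNNNGC in 10.2% and AGGTCA in 14%. A match is a description of the letters only.

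Abcc3 and Abcc4, the basolateral exporters of glucuronides and bile acids, were both lower in FFA than in NC and differed in direction after sinomenine. Abcc3 (ENSMUSG00000020865) was at 296, 306 and 304 FPKM in NC, 249.7, 255 and 250.1 in FFA, and 207, 213 and 214 in FFA-SIN. The 3 groups stepped down without overlap. Abcc3 fell to 0.833 of NC in FFA (log2FC -0.26 ± 0.02, adjusted p = 2.15e-05) and to 0.839 of FFA in FFA-SIN (-0.25 ± 0.02, adjusted p = 2.8e-05). FFA-SIN was at 0.699 of NC (-0.51 ± 0.02, adjusted p = 9.77e-08).

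Abcc4, which also exports cyclic nucleotides, was at 91.7, 94.0 and 92.7 FPKM in NC, 74.2, 74.3 and 73.8 in FFA, and 76.2, 78.1 and 77.3 in FFA-SIN. FFA was lowest without overlap, FFA-SIN lay just above it, and NC well above both. Abcc4 fell to 0.798 of NC in FFA (log2FC -0.32 ± 0.02, adjusted p = 2.01e-06) and was at 0.832 of NC in FFA-SIN (-0.26 ± 0.02, adjusted p = 2.6e-06). The rise from FFA to FFA-SIN was small, at 1.04 times (0.06 ± 0.02, adjusted p = 0.0365). It lost its call when NC replicate 3, any FFA library, or FFA-SIN replicate 2 or 3 was left out. Scaling by quantile normalization, no variance trend and a fit of only the 2 groups compared also removed the call. Over all alternatives the adjusted p of this rise was 0.0155 to 0.126.

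Of the canalicular exporters that were expressed, Abcc2 dipped in FFA and stood at the NC level in FFA-SIN. Abcc2, which sends glutathione and glucuronide conjugates into bile, averaged 84.0 ± 1.07 FPKM in NC, 78.2 ± 0.775 in FFA and 84.3 ± 1.19 in FFA-SIN. It fell in FFA against NC (log2FC -0.10 ± 0.02, adjusted p = 0.00325) and rose in FFA-SIN against FFA (0.11 ± 0.02, adjusted p = 0.0028). FFA-SIN and NC libraries overlapped, and their difference did not pass the test (0.01 ± 0.02, adjusted p = 0.84).

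Abcg2, which exports drugs, urate and porphyrins at the same membrane, was at 9.04, 8.06 and 8.81 FPKM in NC, 8.01, 7.33 and 7.55 in FFA, and 6.40, 5.98 and 6.33 in FFA-SIN. The groups did not overlap, but the highest FFA library came within 0.1 FPKM of the lowest NC library. The fall to 0.883 of NC in FFA passed (log2FC -0.16 ± 0.05, adjusted p = 0.0272). This fall lost its call without NC replicate 1 or 3 or FFA replicate 2 or 3, and with no filter on low values. Its adjusted p over the alternatives was 0.00527 to 0.0895. Abcg2 fell further to 0.818 of FFA in FFA-SIN (-0.25 ± 0.05, adjusted p = 0.00336) and was at 0.722 of NC there (-0.41 ± 0.05, adjusted p = 8.54e-05).

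The remaining drug and conjugate exporters of subfamily C moved in both directions. Abcc1, which carries glutathione conjugates out of many cell types, was at 12.4, 12.8 and 12.7 FPKM in NC, 10.5, 10.1 and 10.1 in FFA, and 9.13, 9.52 and 9.58 in FFA-SIN. The 3 groups stepped down without overlap. Abcc1 fell to 0.812 of NC in FFA (log2FC -0.28 ± 0.03, adjusted p = 9.48e-05) and was at 0.745 of NC in FFA-SIN (-0.39 ± 0.03, adjusted p = 4.45e-06). Its step from FFA to FFA-SIN, to 0.918, was smaller (-0.11 ± 0.03, adjusted p = 0.0166) and lost its call without FFA replicate 1 or FFA-SIN replicate 1, with an adjusted p of 0.015 to 0.0601 over the alternatives.

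Abcc10, an exporter of several anticancer drugs, went the other way. It was at 3.82, 3.89 and 4.27 FPKM in NC, 4.94, 5.44 and 5.06 in FFA, and 6.67, 6.34 and 6.77 in FFA-SIN. The 3 groups stepped up without overlap. Abcc10 rose 1.29 times in FFA against NC (log2FC 0.30 ± 0.05, adjusted p = 0.00109), 1.28 times in FFA-SIN against FFA (0.31 ± 0.05, adjusted p = 0.00106) and 1.65 times in FFA-SIN against NC (0.61 ± 0.05, adjusted p = 6.12e-06).

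Abcc5, an exporter of cyclic nucleotides and organic anions, was higher in FFA-SIN than in both other groups. It was at 18.2, 18.6 and 18.4 FPKM in NC, 18.4, 17.6 and 17.5 in FFA, and 21.3, 20.6 and 21.0 in FFA-SIN. NC and FFA overlapped and FFA-SIN was above both. Abcc5 rose 1.18 times in FFA-SIN against FFA (log2FC 0.22 ± 0.03, adjusted p = 0.000245) and 1.14 times against NC (0.18 ± 0.03, adjusted p = 0.000473), and its difference between FFA and NC did not pass (-0.05 ± 0.03, adjusted p = 0.227). Abcc6, a hepatic transporter whose human counterpart is mutated in pseudoxanthoma elasticum, averaged 1.03 ± 0.0583, 0.785 ± 0.103 and 0.599 ± 0.0133 FPKM in NC, FFA and FFA-SIN. It fell in FFA-SIN against NC (-0.34 ± 0.06, adjusted p = 0.00123). In FFA against NC (-0.18 ± 0.06, adjusted p = 0.0399) it lost its call when any library other than FFA replicate 2 was left out. A pseudocount of 0.1, no filter on low values, quantile normalization, only the 2 groups in the fit and a replicate block also removed that call. The adjusted p of Abcc6 there was 0.0131 to 0.118 over the alternatives. FFA-SIN against FFA did not pass (-0.16 ± 0.06, adjusted p = 0.078) except without FFA replicate 1 or without a variance trend (0.0283 to 0.202).

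Promoter stretches of Abcc2 and Abcc10 are shown as examples of genes that rose in FFA-SIN against FFA, where Abcc3 fell. Abcc4 and Abcc5 also rose there, and their stretches and that of Abcc3 are not shown. Whether the motifs go with the direction of change was not tested. They come from the same RefSeq table, at chr19:43782058-43782307 on the plus strand and chr17:46328024-46328273 on the minus strand, with the same capitals.
Abcc2: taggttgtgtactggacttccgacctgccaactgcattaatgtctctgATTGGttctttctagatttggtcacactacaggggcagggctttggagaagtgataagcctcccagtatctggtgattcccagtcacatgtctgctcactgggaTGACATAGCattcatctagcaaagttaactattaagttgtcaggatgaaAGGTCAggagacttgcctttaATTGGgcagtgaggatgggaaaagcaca
Abcc10: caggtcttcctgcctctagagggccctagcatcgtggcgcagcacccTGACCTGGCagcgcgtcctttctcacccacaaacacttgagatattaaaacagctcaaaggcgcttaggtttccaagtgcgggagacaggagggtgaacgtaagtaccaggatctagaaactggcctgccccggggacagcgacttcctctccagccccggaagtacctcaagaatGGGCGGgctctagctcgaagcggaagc
Abcc2 held the antioxidant element core at -98 to -90, AGGTCA at -49 to -44, and the reverse complement of CCAAT at -202 to -198 and at -28 to -24. In Abcc10 the core at -203 to -195 overlaps the reverse complement of AGGTCA at -203 to -198, and GGGCGG lies at -27 to -22. Of the 26 annotated starts that the table held for 19 of the compared genes, 4 had the antioxidant element core (of Abcc2, Abcc4 and Abcc10), 5 had AGGTCA, 13 had GGGCGG, 5 had CCAAT and 2 had TATAAA.

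**Figure D4:**
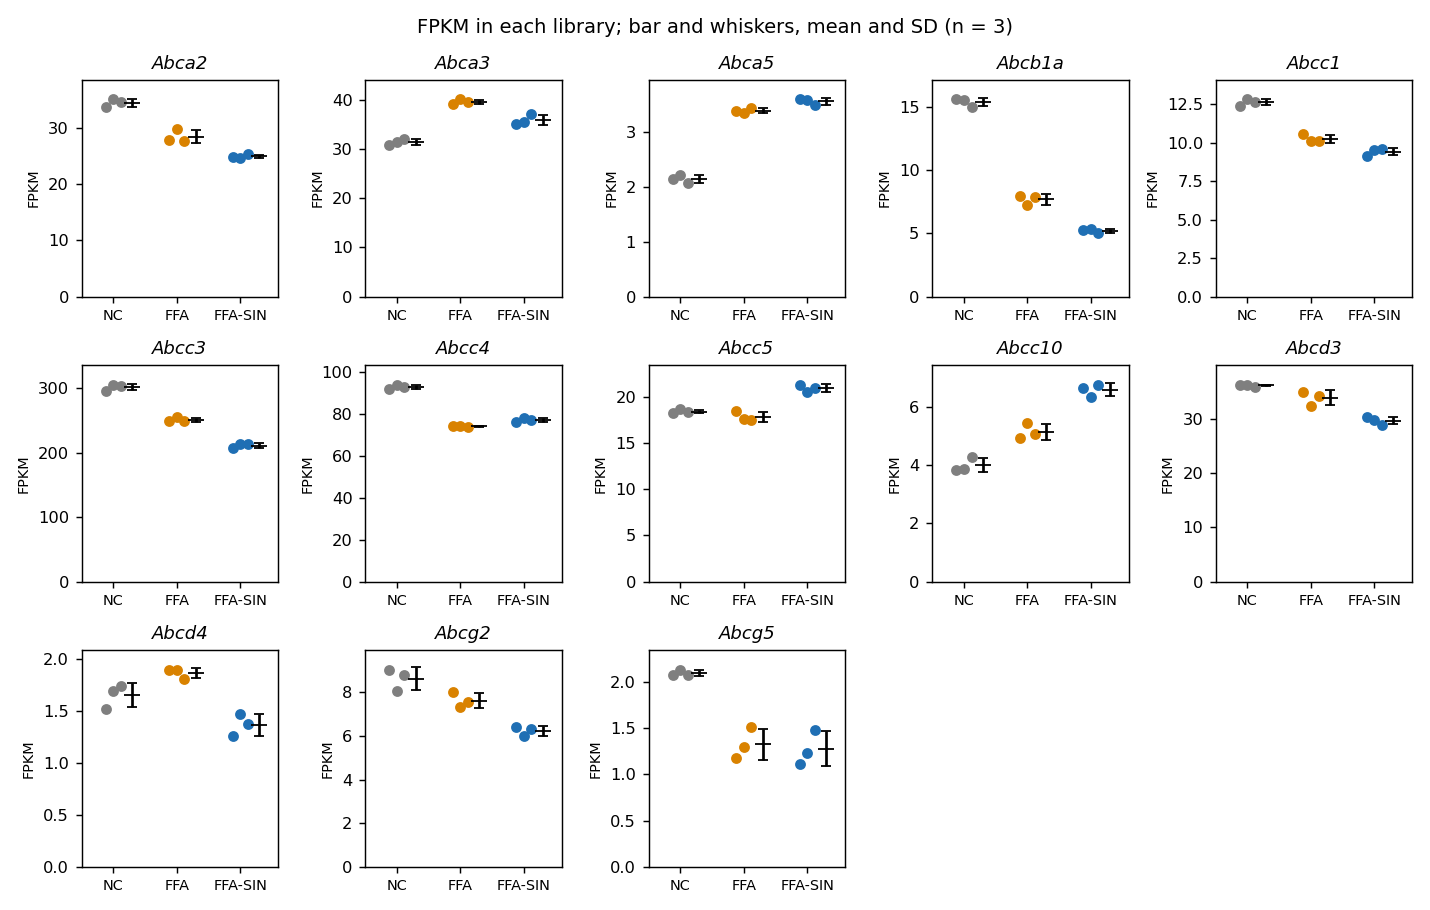
FPKM in each of the 9 libraries (points; y axes start at 0 and differ between panels) for 13 ABC genes, with the mean and SD of 3 libraries to the right of each group. Abcb1a, Abcc1, Abcc3, Abca2 and Abcg2 step down from NC to FFA to FFA-SIN, Abcc10 steps up, and Abcg5 is lower in FFA and FFA-SIN, which overlap, than in NC.

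The sterol exporters of bile, Abcg5 and Abcg8, work only as a pair, and Abcg5 passed the test where Abcg8 did not. Abcg5 (ENSMUSG00000040505) was at 2.07, 2.13 and 2.08 FPKM in NC, 1.18, 1.29 and 1.51 in FFA, and 1.11, 1.24 and 1.48 in FFA-SIN. NC was above both other groups, which overlapped. Abcg5 fell to 0.634 of NC in FFA (log2FC -0.41 ± 0.07, adjusted p = 0.00207) and was at 0.610 of NC in FFA-SIN (-0.44 ± 0.07, adjusted p = 0.000772). Between FFA-SIN and FFA the log2FC was -0.03 ± 0.07 (adjusted p = 0.782).

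Abcg8 averaged 1.24 ± 0.0914 FPKM in NC, 1.1 ± 0.0877 in FFA and 0.996 ± 0.194 in FFA-SIN, the groups overlapped in each comparison, and none passed the test (adjusted p = 0.403 for FFA against NC, 0.501 for FFA-SIN against FFA and 0.0989 for FFA-SIN against NC). Leaving out FFA-SIN replicate 2 gave Abcg8 a call against NC, with an adjusted p of 0.0262 to 0.299 over the alternatives. The ratio of Abcg5 to Abcg8 was 1.70 ± 0.121 in NC, 1.22 ± 0.253 in FFA and 1.33 ± 0.433 in FFA-SIN. Whether the pair differed in response was not tested.

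The pair is transcribed in opposite directions from starts that lie close together, and the 109 bases between them are shown for that reason, from RefSeq at chr17:84683012-84683120 of GRCm38.p6, on the plus strand, which is the strand of Abcg8.
Abcg5-Abcg8: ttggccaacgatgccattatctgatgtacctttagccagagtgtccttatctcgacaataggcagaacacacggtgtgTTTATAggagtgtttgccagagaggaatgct
The capitals are TATAAA read on the minus strand, the strand of Abcg5. They lie at -84 to -79 from the Abcg5 start and at -31 to -26 from the Abcg8 start. The 2 starts counted above with TATAAA are those of Abcg5 and Abcg8, so that count holds this site once from each side. No other of the 5 motifs was found between the starts.

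Of the 5 lipid transporters of subfamily A that were compared, 4 rose and 1 fell in FFA against NC (17.1% and 16.8% of all genes), and 0 rose and 2 fell in FFA-SIN against FFA (12.6% and 15.7%). Abca3, which packs phospholipids into lamellar bodies in lung, was at 30.8, 31.4 and 32.0 FPKM in NC, 39.2, 40.1 and 39.5 in FFA, and 35.1, 35.5 and 37.1 in FFA-SIN. FFA was highest and FFA-SIN lay between it and NC, without overlap. Abca3 rose 1.26 times in FFA against NC (log2FC 0.33 ± 0.03, adjusted p = 1.77e-05), fell to 0.906 of FFA in FFA-SIN (-0.14 ± 0.03, adjusted p = 0.00321), and was 1.14 times NC there (0.19 ± 0.03, adjusted p = 0.000283).

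Abca5, a lysosomal member, was at 2.14, 2.22 and 2.08 FPKM in NC, 3.38, 3.35 and 3.44 in FFA, and 3.60, 3.59 and 3.49 in FFA-SIN. Every FFA and FFA-SIN library was above every NC library. Abca5 rose 1.58 times in FFA against NC (log2FC 0.48 ± 0.03, adjusted p = 8.34e-06) and 1.66 times in FFA-SIN against NC (0.53 ± 0.03, adjusted p = 1.5e-06). FFA-SIN libraries lay just above FFA, and that difference did not pass (0.05 ± 0.03, adjusted p = 0.266).

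Abca2, an endolysosomal member that affects sterol trafficking, was the exception. It was at 33.8, 35.2 and 34.6 FPKM in NC, 27.9, 29.8 and 27.8 in FFA, and 24.8, 24.7 and 25.4 in FFA-SIN, and stepped down without overlap. Abca2 fell to 0.825 of NC in FFA (log2FC -0.27 ± 0.03, adjusted p = 0.000146), to 0.877 of FFA in FFA-SIN (-0.18 ± 0.03, adjusted p = 0.00163) and to 0.723 of NC in FFA-SIN (-0.45 ± 0.03, adjusted p = 2.14e-06).

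Abca7, which moves phospholipids and takes part in phagocytosis, averaged 10.99 ± 0.116 FPKM in NC and rose to 12.3 ± 0.0911 in FFA (log2FC 0.15 ± 0.03, adjusted p = 0.00551). Abca8b averaged 1.40 ± 0.0481 FPKM in NC and rose to 1.78 ± 0.136 in FFA (0.21 ± 0.05, adjusted p = 0.00952). Both were also higher in FFA-SIN than in NC (0.14 ± 0.03, adjusted p = 0.00448, and 0.20 ± 0.05, adjusted p = 0.00926), with FFA-SIN against FFA not passing. Abca8b and Abca5 lie in a row of Abca genes on chromosome 11 with Abca8a, Abca9 and Abca6, which were below the minimum. Abca8a and Abca8b share much sequence, so reads could be split between them.

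In subfamily D, Abcd3 and Abcd4 were both lower with sinomenine. Abcd3, which admits branched-chain fatty acids and bile acid precursors to peroxisomes, was at 36.2, 36.1 and 35.9 FPKM in NC, 35.0, 32.3 and 34.1 in FFA, and 30.2, 29.8 and 28.9 in FFA-SIN. The groups stepped down without overlap. Abcd3 fell to 0.877 of FFA in FFA-SIN (log2FC -0.18 ± 0.03, adjusted p = 0.0018) and was at 0.821 of NC there (-0.28 ± 0.03, adjusted p = 6.81e-05). In FFA against NC it fell to 0.937 (-0.09 ± 0.03, adjusted p = 0.0416). That call was lost when any NC library, FFA replicate 2 or 3, or FFA-SIN replicate 1 or 2 was left out. No filter on low values, no variance trend and only the 2 groups in the fit also removed it. The adjusted p over the alternatives was 0.0219 to 0.11.

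Abcd4, which works in lysosomal cobalamin export, was at 1.52, 1.70 and 1.74 FPKM in NC, 1.89, 1.90 and 1.81 in FFA, and 1.26, 1.47 and 1.38 in FFA-SIN. FFA was highest and FFA-SIN lowest, without overlap. Abcd4 fell to 0.732 of FFA in FFA-SIN (log2FC -0.28 ± 0.05, adjusted p = 0.00359), and its difference between FFA and NC did not pass (0.11 ± 0.05, adjusted p = 0.132). In FFA-SIN against NC it fell to 0.826 (-0.17 ± 0.05, adjusted p = 0.026). That call was lost without NC replicate 2 or 3 or FFA-SIN replicate 1 or 3. No filter on low values, quantile normalization and only the 2 groups in the fit also removed it. The adjusted p over the alternatives was 0.0135 to 0.0892.

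Of the mitochondrial members, Abcb10, linked to heme synthesis, averaged 8.09 ± 0.350, 7.47 ± 0.458 and 7.05 ± 0.307 FPKM in NC, FFA and FFA-SIN. It fell in FFA-SIN against NC (-0.18 ± 0.05, adjusted p = 0.0136) and lost that call without NC replicate 2 or FFA-SIN replicate 2, with an adjusted p of 0.00821 to 0.0503 over the alternatives. Without FFA replicate 1 it also passed in FFA against NC (0.0489 to 0.36). Abcb8 averaged 12.8 ± 0.331, 13.5 ± 0.167 and 12.6 ± 0.665 FPKM and passed in no comparison, though without FFA-SIN replicate 2 it did in FFA-SIN against FFA (0.034 to 0.198 over the alternatives).

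As a set, the 4 members without a membrane span changed little. Their median absolute log2FC was 0.04 for FFA against NC, 0.03 for FFA-SIN against FFA and 0.07 for FFA-SIN against NC. Over all genes tested it was 0.09, 0.08 and 0.13. For Abce1, which splits ribosomes after translation, and Abcf1, Abcf2 and Abcf3, 0 of 4 passed in FFA against NC and in FFA-SIN against FFA, where log2FC ran from -0.08 to 0.02 and from -0.13 to 0.04. Over all genes tested 34% and 28.3% changed in these comparisons, and 4 genes are too few to set against those shares. At an unadjusted p under 0.05, limma would have counted 1 of 4 in each of these comparisons, Abce1 and Abcf3 in turn. No share over all genes was taken at that threshold. Leaving out FFA-SIN replicate 3, or a replicate block, gave Abcf3 a call in FFA-SIN against FFA (adjusted p of 0.043 to 0.193 over the alternatives). In FFA-SIN against NC Abcf3 fell from 15.6 ± 0.347 to 14.2 ± 0.805 FPKM (-0.13 ± 0.04, adjusted p = 0.0393). That call was lost when any NC library or FFA-SIN replicate 1 or 2 was left out. No filter on low values and no variance trend also removed it (0.0243 to 0.126 over the alternatives). In the same comparison Abcf1 gained a call without NC replicate 1 or FFA replicate 1, with quantile normalization and with a replicate block (0.0251 to 0.183). Abcf2 gained a call there without FFA-SIN replicate 3 and with median-of-ratios scaling (0.0346 to 0.16). Abce1 averaged 34.2 ± 1.37, 32.3 ± 0.623 and 32.6 ± 1.05 FPKM, Abcf1 44.2 ± 1.21, 42.4 ± 1.49 and 41.8 ± 0.933, and Abcf2 43.3 ± 0.638, 43.9 ± 0.914 and 45.2 ± 0.756 in NC, FFA and FFA-SIN.

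Partner genes that feed the conjugate exporters were lower in most cases. Of 15 tested genes of glutathione supply and conjugation, 13 fell and 1 rose in FFA against NC, 10 fell and 1 rose in FFA-SIN against FFA, and 12 fell and 1 rose in FFA-SIN against NC, with median log2FC of -0.37, -0.17 and -0.54. Over all genes tested 16.8% fell and 17.1% rose in the first comparison, 15.7% and 12.6% in the second, and 25% and 22.9% in the third. Gstm1, a glutathione transferase, averaged 784 ± 10.4 FPKM in NC, 513 ± 9.39 in FFA and 429 ± 7.14 in FFA-SIN (log2FC -0.61 ± 0.02, adjusted p = 1.28e-07 for FFA against NC). Ugt2b34, a glucuronosyltransferase, averaged 268 ± 4.35, 207 ± 0.995 and 146 ± 5.51 FPKM (-0.50 ± 0.03, adjusted p = 1.95e-06 for FFA-SIN against FFA).

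Of 15 tested receptors and factors that sense drugs and bile acids, 2 rose and 6 fell in FFA against NC (53.3% changed, 34% of all genes), and 3 rose and 5 fell in FFA-SIN against FFA (53.3%, 28.3% of all genes). Nr1i2 (PXR), a receptor for foreign compounds known to control drug exporters, averaged 9.82 ± 0.850 FPKM in NC and 9.41 ± 0.265 in FFA, and fell to 7.08 ± 0.0692 in FFA-SIN (log2FC -0.36 ± 0.05, adjusted p = 0.000597). Nr0b2 (SHP), a repressor that the bile acid receptor FXR induces, rose from 0.131 ± 0.0310 FPKM in FFA to 2.38 ± 0.272 in FFA-SIN (1.58 ± 0.07, adjusted p = 5.92e-07). It averaged under 0.5 FPKM in both NC and FFA and entered the test only through FFA-SIN, the group where it was high, so this p is no support. Nr0b2 is also among the 3 that rose in FFA-SIN against FFA. That count and its 53.3% therefore rest in part on the filter. Ahr, the dioxin receptor, averaged 5.15 ± 0.135, 6.17 ± 0.113 and 7.85 ± 0.292 FPKM in NC, FFA and FFA-SIN (0.22 ± 0.03, adjusted p = 0.000898 for FFA against NC, and 0.30 ± 0.03, adjusted p = 0.000146 for FFA-SIN against FFA).

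Bile acid handling outside the ABC family was sparse. Only 2 of the 15 listed genes of bile acid synthesis and transport that were in the table reached the minimum, Cyp27a1, a sterol hydroxylase, and Baat, which conjugates bile acids. Baat fell from 1.62 ± 0.0818 FPKM in NC to 0.724 ± 0.0694 in FFA (log2FC -0.60 ± 0.09, adjusted p = 0.000664), and Cyp27a1 rose from 8.31 ± 0.424 to 9.19 ± 0.30 FPKM (0.13 ± 0.04, adjusted p = 0.0411). Slc51b, a subunit of a basolateral bile acid exporter, was below the minimum over all libraries and not tested, at 0.0146 ± 0.0254 FPKM in NC, 0.0882 ± 0.0838 in FFA and 1.21 ± 0.0741 in FFA-SIN.

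Of 13 tested sterol partners of the lipid exporters, 4 rose and 1 fell in FFA against NC, a share of 38.5% near the 34% of all genes. In FFA-SIN against FFA 5 rose and 5 fell (76.9%, beside 28.3% of all genes). Insig1, a sterol sensor that holds back sterol synthesis, rose from 8.85 ± 0.117 FPKM in NC to 24.2 ± 0.862 in FFA (log2FC 1.36 ± 0.03, adjusted p = 4.61e-09) and to 30.3 ± 0.0895 in FFA-SIN (0.31 ± 0.03 against FFA, adjusted p = 3.33e-05). Rxra, the partner receptor of LXR and PXR, fell from 18.7 ± 0.580 to 15.8 ± 0.468 FPKM in FFA (-0.23 ± 0.03, adjusted p = 0.000346).

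Of 14 tested peroxisome genes, 7 rose and 0 fell in FFA against NC (50%, beside 34% of all genes), and 1 rose and 4 fell in FFA-SIN against FFA (35.7%, beside 28.3%). Crot, which moves shortened acyl chains to carnitine for export from peroxisomes, averaged 28.8 ± 0.584, 49.0 ± 1.32 and 61.6 ± 2.09 FPKM in NC, FFA and FFA-SIN (log2FC 0.75 ± 0.03, adjusted p = 3.25e-07 for FFA against NC, and 0.32 ± 0.03, adjusted p = 6.03e-05 for FFA-SIN against FFA). Of 11 tested partners of the mitochondrial members in iron-sulfur and heme synthesis, 1 rose and 1 fell in FFA against NC (18.2%, below the 34% of all genes). The mitochondrial iron importer Slc25a37 was the gene that fell, from 22.7 ± 0.456 to 18.7 ± 0.305 FPKM (-0.26 ± 0.02, adjusted p = 4.11e-05). Of 10 tested partners of Abce1 and the Abcf genes in translation, 4 rose and 1 fell in FFA against NC (50%). Etf1, the release factor at stop codons, rose from 87.9 ± 0.849 to 104 ± 1.99 FPKM (0.23 ± 0.02, adjusted p = 4.47e-05).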

How the data were processed

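RNA-seq of AML12 cells was deposited by the authors as normalized values per gene, read here as FPKM, over 30350 genes in 9 libraries. No header names the unit, which was inferred from the values. Every one of 205016 values above 0 was a whole number of reads (100%) within 0.01 of a read, once scaled by relative depth. The number of reads behind the lowest value was searched for gene by gene. For genes above 0 in few libraries nearly any values would give a match, so there the share is no test. Depth per library came from these reads, and limits it sets cover counting error only. Per the submitters' processing notes, reads were trimmed with Trimmomatic and aligned with HISAT2 to GRCm39. The sources used here give no versions, counter, strand setting or annotation, so paralogs and overlapping genes are less certain. The kit was for stranded total RNA, per the labels' protocols.

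Gene IDs were matched to symbols for 28734 genes (94.7%). Genes averaging 0.5 FPKM or more were tested with limma 3.58.1 (R 4.3.3) on log2(FPKM + 1), with 1 coefficient per group, eBayes with a trend, all 9 libraries in a single fit, two-sided p-values adjusted by Benjamini and Hochberg per comparison, and 0.05 as the threshold. The fit was tested on simulated data. Since the values are FPKM, no count model was run. Members and lists were chosen with earlier results of these data known. Every library's value is given for Abcb1a, Abcg5 and the 8 changed members with the largest absolute log2 fold change per comparison, which made 13 genes, and up to 3 changed genes are named per partner list and comparison. Slc51b, the library values of Abcb1b and the promoters shown were picked after their values were seen. In all 18 alternatives were run, covering the pseudocount, the filter, the scaling, the variance trend, the groups in the fit, a replicate block and each library left out. Promoters came from RefSeq (GRCm38.p6), which had an entry for 38 of the 50 members. Scripts used Python 3.11.15, numpy 2.4.6, pandas 2.3.3 and matplotlib 3.10.9. Columns of the table left unused numbered 0. A few ABC genes are counted but not reported by name here.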

Additional observations from a re-analysis of the deposited data

How the results depend on the processing

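The counts of changed ABC genes and of all changed genes stayed within 1.5 times of those reported under all 18 alternatives. Of the ABC genes 6 to 7 were up and 7 to 10 down in FFA against NC, 3 to 4 up and 7 to 9 down in FFA-SIN against FFA, and 7 to 8 up and 9 to 13 down in FFA-SIN against NC. No called fold change of an ABC gene took the opposite sign. For single ABC genes, 55 calls were lost and 15 gained over all genes, comparisons and alternatives, and 1331 stayed on their side of the threshold, of which 20 without a call changed sign. The lost calls were in Abcc6, Abcd3 and Abcg2 (FFA against NC), Abcc4 and Abcc1 (FFA-SIN against FFA), and Abcd4, Abcf3 and Abcb10 (FFA-SIN against NC), and the cause was not tested. A minimum of 1 FPKM leaves 25 of the 26 genes, since Abcc6 drops out. Another scaling moved the median of all genes by under 0.1 on the log2 scale, but it changed the balance of rises and falls. In FFA-SIN against FFA 1652 of all genes were up and 2065 down. With median-of-ratios size factors this was 1846 up and 1855 down, and with quantile normalization 1799 up and 1882 down. The larger share of falls over all genes there thus depended on the scaling. ABC genes stayed at 4 up and 8 down with the first scaling and were 3 up and 8 down with the second. The genes with the fewest reads per library (Abcg5, Abcg8, Abcc6) are the least precise, with 138 reads at the lowest.

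The replicate numbers were not used to pair the libraries in the main fit. The correlation of same-numbered libraries' deviations was -0.03 to 0.12, above 0.1 for 1 of 9 pairs. For 3 of 9 libraries, the best correlation was with their own number in both other groups. Whether that count differs from chance was not tested. With the replicate number as a block, 6 ABC genes were up and 9 down in FFA against NC, 4 up and 9 down in FFA-SIN against FFA, and 7 up and 13 down in FFA-SIN against NC. Over all genes 2224 were up and 2166 down, 1663 up and 2005 down, and 3034 up and 3213 down.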
